A study of Mus musculus with 2 samples.

Results

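The genes described here are 34 listed type I interferon-stimulated genes, chosen by symbol. Of these, 32 matched the 32287 features of the count matrices; Mx1 and Mx2 were not analysed here. They were followed in 2 single-cell RNA libraries of mouse liver, 1 per group. All mice were 4-week-old wild-type C57BL/6J animals given an adeno-associated virus (AAV) that carried either a scrambled sequence (AAV-scramble) or a short hairpin against Bicd2, a dynein cargo adaptor (AAV-shBicd2). After 3 weeks both groups received concanavalin A (Con A) intravenously at 15 mg/kg, a lectin that activates T cells and injures the liver, and livers were taken 6 hours later. There was no group without Con A or without virus, and the labels do not give how many mice went into a library, the promoter of the hairpin or the cells it reaches.

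The series asks how the Bicd2 hairpin alters the liver under Con A, and with 1 library per group no difference here has a replicate check. Levels are counts of unique molecular identifiers (UMIs, which mark captured RNA molecules) scaled to a fixed total per class and library (CPM). Ratios divide the shBicd2-labelled level by the scramble-labelled one, and brackets are exact 95% intervals that cover counting error only. Bicd2 itself had 80 UMIs (16.4 CPM) with the scramble label and 107 UMIs (19.7 CPM) with the shBicd2 label, so its RNA was not lower there and the libraries are called by their labels throughout. EGFP, which the submitted feature list holds as a gene, was found in 6.12% and 27.5% of kept barcodes.

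After quality filters 2729 of 2805 and 2941 of 3038 barcodes (droplets taken as cells) remained, scramble first here and below unless stated. They held 4892085 and 5417929 UMIs, with medians of 1502 and 1498 per barcode, and 3 barcode sequences occurred in both libraries. Hepatocyte barcodes were those with at least 5 UMIs of 15 hepatocyte markers and 0 UMIs of 38 nonparenchymal genes, which left 2245 and 2266. This class is a range and not a sorted type: 174 and 76 of them held only 5 to 9 marker UMIs, and 227 and 400 further barcodes missed it by 1 nonparenchymal UMI. Ptprc-positive barcodes, those with at least 1 UMI of the pan-leukocyte gene Ptprc (CD45), numbered 152 and 114. They also carried hepatocyte RNA, with an Alb UMI in 48.0% and 64.9% of them against 64.1% and 78.5% of hepatocyte barcodes.

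Type I interferons are secreted proteins that bind the IFNAR1 and IFNAR2 receptor chains and activate the kinases JAK1 and TYK2. These phosphorylate STAT2, which acts with IRF9 in the complex ISGF3, and ISGF3 binds the interferon-stimulated response element (ISRE) in front of its target genes. The products include RNA sensors, inhibitors of viral translation and replication, a ubiquitin-like modifier and brakes on the receptor. Interferon gamma, the main interferon of activated T cells, uses another receptor, and its targets overlap in part with these genes.

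The ISRE links the members to the pathway at the sequence level, so the windows of the members that hold it are shown first. RefSeq (GRCm38.p6) gave a promoter window of 250 bases before to 50 bases after the start site for 25 of the members. In these windows the core motif GAAANNGAAA, read on both strands with overlapping matches counted, was present for 15 members (60.0%), against 3.99% of all 27025 genes in the table. The 4 members with a match and the most UMIs are printed, followed by Isg15, which was added after its values were seen because it holds 3 overlapping matches. Each run of 280 bases is 5′ to 3′ on the gene's strand, ends 30 bases after the start site, and has the motif in capitals; of the 2 entries for Trim30a the upstream one is given.
Stat2 (chr10:128270248-128270527, plus strand): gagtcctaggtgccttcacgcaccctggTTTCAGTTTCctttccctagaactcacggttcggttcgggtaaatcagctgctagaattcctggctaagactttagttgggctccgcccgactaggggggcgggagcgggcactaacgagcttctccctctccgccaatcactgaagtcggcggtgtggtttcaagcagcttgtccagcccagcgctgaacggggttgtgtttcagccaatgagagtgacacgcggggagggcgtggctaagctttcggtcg
Trim12a (chr7:104315466-104315745, minus strand): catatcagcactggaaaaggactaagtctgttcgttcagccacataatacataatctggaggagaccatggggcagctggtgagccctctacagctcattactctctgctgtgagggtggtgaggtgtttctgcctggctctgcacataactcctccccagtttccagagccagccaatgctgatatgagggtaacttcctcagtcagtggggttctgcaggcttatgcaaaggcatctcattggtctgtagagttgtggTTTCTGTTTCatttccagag
Trim30a (chr7:104465164-104465443, minus strand): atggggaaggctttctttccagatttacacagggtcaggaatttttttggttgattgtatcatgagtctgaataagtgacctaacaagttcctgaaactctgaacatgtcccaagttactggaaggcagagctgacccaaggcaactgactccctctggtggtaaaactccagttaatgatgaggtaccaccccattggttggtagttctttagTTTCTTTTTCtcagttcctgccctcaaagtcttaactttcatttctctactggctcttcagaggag
Rsad2 (chr12:26456423-26456702, minus strand): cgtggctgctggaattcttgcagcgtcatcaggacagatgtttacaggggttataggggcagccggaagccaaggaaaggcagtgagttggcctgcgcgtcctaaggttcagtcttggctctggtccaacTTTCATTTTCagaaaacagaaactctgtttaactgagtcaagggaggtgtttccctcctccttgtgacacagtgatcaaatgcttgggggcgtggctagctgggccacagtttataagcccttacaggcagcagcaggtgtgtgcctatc
Isg15 (chr4:156200789-156201068, minus strand): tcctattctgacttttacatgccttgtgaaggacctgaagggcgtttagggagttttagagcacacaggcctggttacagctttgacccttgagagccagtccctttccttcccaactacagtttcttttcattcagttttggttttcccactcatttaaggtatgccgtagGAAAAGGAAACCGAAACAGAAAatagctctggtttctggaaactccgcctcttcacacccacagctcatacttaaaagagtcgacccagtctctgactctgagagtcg
The match lay 222 bases before the start site for Stat2, 120 before for Rsad2 and 36 before for Trim30a. For Isg15 the matches began 78 bases before it. In Trim12a it began after the start site of the RefSeq entry. Members with and without a match had similar ratios between the libraries in hepatocyte barcodes, with medians of 0.532 (15 members) and 0.486 (10 members); the match is a description of letters and not of binding.

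In hepatocyte barcodes the members together had 20225 UMIs in the library labelled scramble and 10908 in that labelled shBicd2, a ratio of 0.536 (0.523 to 0.548). Of the 31 members with at least 20 UMIs over both libraries, 30 had a lower level in the library labelled shBicd2, and 22 were 1.5-fold lower or more. Across all 10864 genes above that floor the share 1.5-fold lower was 10.8%, and the share 1.5-fold higher was 24.7%. The median log2 ratio was -0.88 for the members and 0.15 for all genes. Over all kept barcodes 22 of 32 members were 1.5-fold lower or more, against 10.8% of genes, and 1, Ifi27l2a with 3 and 20 UMIs, was 1.5-fold higher or more, against 24.3%. A member UMI was found in 98.0% and 91.8% of hepatocyte barcodes, with medians of 6 and 3 member UMIs per barcode. The 10% of barcodes with the most member UMIs held 34.1% and 36.4% of them. Between the libraries the median mitochondrial share of these barcodes was 0.176% and 0.334%, and neutrophil markers were found in 6.33% and 22.8% of them. The neutrophil list, of which 7 and 8 of 11 genes were detected, summed to 0.00436% and 0.0181% of UMIs. In hepatocyte barcodes with 0 UMIs of any immune marker (1663 and 1349) the summed ratio was 0.526 (0.509 to 0.543). Leaving out any 1 member moved the ratio only between 0.505 (without Stat2) and 0.552 (without Herc6).

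**Figure D1:**
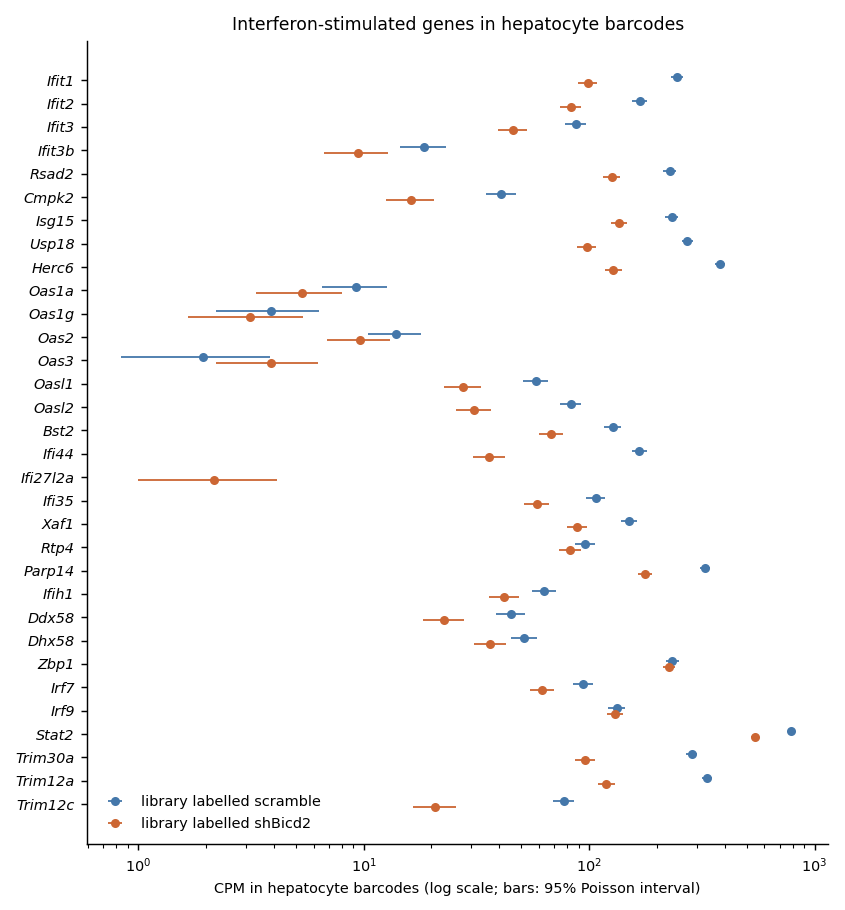
CPM (log axis) of each member in hepatocyte barcodes of the library labelled scramble (blue) and shBicd2 (orange), ordered by role, with exact 95% Poisson intervals as bars. Stat2 lies at 786 and 546 CPM, Irf9 and Zbp1 overlap between the libraries, and Ifi27l2a has 0 UMIs in scramble and so only an orange point.

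The IFIT proteins bind viral RNA or translation factors, viperin (Rsad2) makes a chain-terminating nucleotide, and Cmpk2 is a mitochondrial nucleotide kinase encoded beside it on chromosome 12. The IFIT members lie together on chromosome 19 between 34550694 and 34650009 (GRCm38). All 6 members of this group were over 1.5-fold lower in the library labelled shBicd2. Ifit1 had 245 CPM (230 to 261) and 98.9 CPM (89.5 to 109), a ratio of 0.403, and was detected in 18.4% and 9.36% of hepatocyte barcodes. Rsad2 had 228 and 126 CPM, and Ifit2 had 167 and 83.2 CPM. The share of barcodes with an Rsad2 UMI differed less than its level, at 15.2% and 11.2%. A single shBicd2 barcode, described below, held 65 of the 521 Rsad2 UMIs, and without it the ratio of Rsad2 was 0.484. Ifit3 (0.527), Ifit3b (0.510) and Cmpk2 (0.396) had ratios in the same range; Ifit3 and Ifit3b are near-identical copies, so reads may be split between them.

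Isg15 is a ubiquitin-like protein, Herc6 its ligase in the mouse and Usp18 the protease that removes it and also blocks the interferon receptor. Herc6 had 382 CPM (363 to 401) and 128 CPM (118 to 140), a ratio of 0.336. Usp18 had 273 and 97.7 CPM, a ratio of 0.358, and was detected in 31.0% and 13.9% of barcodes. Isg15 differed least of the trio, with 233 and 136 CPM and a ratio of 0.585.

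The OAS enzymes sense double-stranded RNA and make 2′-5′ oligoadenylates that activate RNase L, while Oasl1 lacks most of that activity. Oasl2 had 83.0 and 30.9 CPM, and Oasl1 had 57.9 and 27.6 CPM. Oas1a, Oas1g, Oas2 and Oas3 were sparse in hepatocyte barcodes, with 40 to 57 UMIs per library for Oas2 and fewer for the others. Oas2 had 13.9 CPM (10.5 to 18.0) and 9.67 CPM (6.91 to 13.2), and these intervals overlap. Oas3 was the only member above the UMI floor with a higher level in the library labelled shBicd2 in these barcodes. It rested on 8 and 16 UMIs, a ratio of 1.99 (0.802 to 5.36). Oas1a (0.575) and Oas1g (0.807) are near-identical copies with 60 and 29 UMIs in all.

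Parp14 is a mono-ADP-ribosyltransferase, Xaf1 promotes apoptosis, and Bst2 (tetherin) holds budding virus at the membrane. Their levels were 327 and 177 CPM for Parp14, 150 and 88.7 for Xaf1, and 128 and 67.9 for Bst2. Ifi44, a GTP-binding-like protein, had the lowest ratio of all members, 167 CPM (155 to 180) against 36.0 CPM (30.5 to 42.3), which is 0.216. It was detected in 22.3% and 5.47% of hepatocyte barcodes. Ifi35 followed the group at 107 and 58.5 CPM. Rtp4, a chaperone of receptor transport, differed little at 96.2 and 82.4 CPM; it overlaps Masp1 on the other strand, and the use of strand in the counting was not given in the sources used here. Ifi27l2a had 0 and 9 UMIs, under the floor of 20.

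The sensors Ifih1 (MDA5) and Ddx58 (RIG-I) recognise viral RNA and signal through MAVS, Dhx58 (LGP2) modulates them, and Zbp1 senses Z-form nucleic acid and can trigger necroptosis. Zbp1 had 234 CPM (220 to 249) and 226 CPM (212 to 241), a ratio of 0.966 (0.882 to 1.06), in 31.8% and 29.8% of barcodes. The RNA helicases were lower in the library labelled shBicd2, with 63.1 and 42.1 CPM for Ifih1, 51.6 and 36.5 for Dhx58, and 45.0 and 22.7 for Ddx58. The interval of the ratio of Zbp1 did not overlap those of Ifih1 (0.547 to 0.812), Dhx58 (0.570 to 0.876) or Ddx58 (0.389 to 0.650); the difference between members was not tested.

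Among the transcription factors Stat2 and Irf9, both in ISGF3, did not share a ratio. Stat2 had 786 CPM (759 to 813) and 546 CPM (524 to 569), a ratio of 0.695, and was detected in 68.2% and 55.5% of hepatocyte barcodes. Irf9 had 132 CPM (122 to 144) and 130 CPM (120 to 142), a ratio of 0.984 (0.872 to 1.11); part of it overlaps Rnf31 on the same strand. Irf7, the factor that amplifies interferon genes, had 94.0 and 61.9 CPM, a ratio of 0.659; it overlaps Phrf1 on the other strand.

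Trim30a, Trim12a and Trim12c are RING-type ubiquitin ligases of a TRIM family block expanded in rodents. Trim12a had 334 CPM (317 to 353) and 119 CPM (109 to 130), a ratio of 0.357, and was detected in 38.1% and 15.7% of barcodes. Trim30a had 286 and 96.0 CPM, a ratio of 0.336. Trim12c, a near copy of Trim12a, had 77.2 and 20.8 CPM, a ratio of 0.269. All 3 lie on the minus strand of chromosome 7, Trim12a at 104299894 to 104315466, Trim12c at 104338754 to 104353362 and Trim30a at 104409025 to 104465193 (GRCm38). Within 200000 bases of these genes, 4 more TRIM genes had at least 20 UMIs, and each was lower in the library labelled shBicd2: Trim34a (0.264), Trim5 (0.293), Trim30d (0.341) and Trim6 (0.567). These neighbours were looked up after the ratios of the members were seen. Copies in this block are similar in sequence, so reads may be split or discarded among them.

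The next question was whether the ratio holds in barcodes in which 5 of the antiviral members were not detected. The gate is these members, Ifit1, Ifit2, Ifit3, Rsad2 and Cmpk2, and gate-positive barcodes are those with at least 1 UMI of them. Among hepatocyte barcodes 37.6% (35.6 to 39.6) held a gate UMI under the scramble label, and 23.8% (22.0 to 25.6) under the shBicd2 label. Thinned to 1000 UMIs each, which left 1802 and 1830 barcodes, the shares were 28.6% and 18.3%.

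In the 1401 and 1727 gate-zero hepatocyte barcodes the 27 members outside the gate summed to 8278 and 5863 UMIs, a ratio of 0.560 (0.541 to 0.579). Of the 23 with at least 20 UMIs, 22 had a lower level in the library labelled shBicd2 and 18 were 1.5-fold lower or more, against 11.6% of all 10149 genes above the floor. The median log2 ratio was -0.92, against 0.14 for all genes. A gate count of 0 at a median of 1412 and 1381 UMIs per barcode does not show that a cell lacks these transcripts. Median mitochondrial shares of these barcodes were 0.178% and 0.344%, EGFP was in 3.28% and 21.5% of them, and neutrophil marker UMIs were in 5.50% and 20.7%; with 0 immune marker UMIs in a barcode the ratio was 0.559. Among gate-zero hepatocyte barcodes without an EGFP UMI it was also 0.559, and with one it was 0.554.

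The order of the members was much the same as before. Ifi44 had 145 CPM and 26.6 CPM in gate-zero barcodes, a ratio of 0.183 (0.141 to 0.236). Trim12c followed at 0.249, Trim30a at 0.254 with 269 and 68.3 CPM, and Trim12a at 0.304 from 705 and 271 UMIs. Herc6 had 275 and 86.5 CPM, and Usp18 had 198 and 86.5 CPM. The 3 TRIM members together had a ratio of 0.277 here. Irf9 was at 131 and 140 CPM, a ratio of 1.07 (0.918 to 1.25) that became less than 1 with the trimmed mean of M-values (TMM) as scale, and Zbp1 was at 249 and 231 CPM. Oas3 (4 and 11 UMIs) and Ifi27l2a (0 and 6 UMIs) were under the floor.

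**Figure D2:**
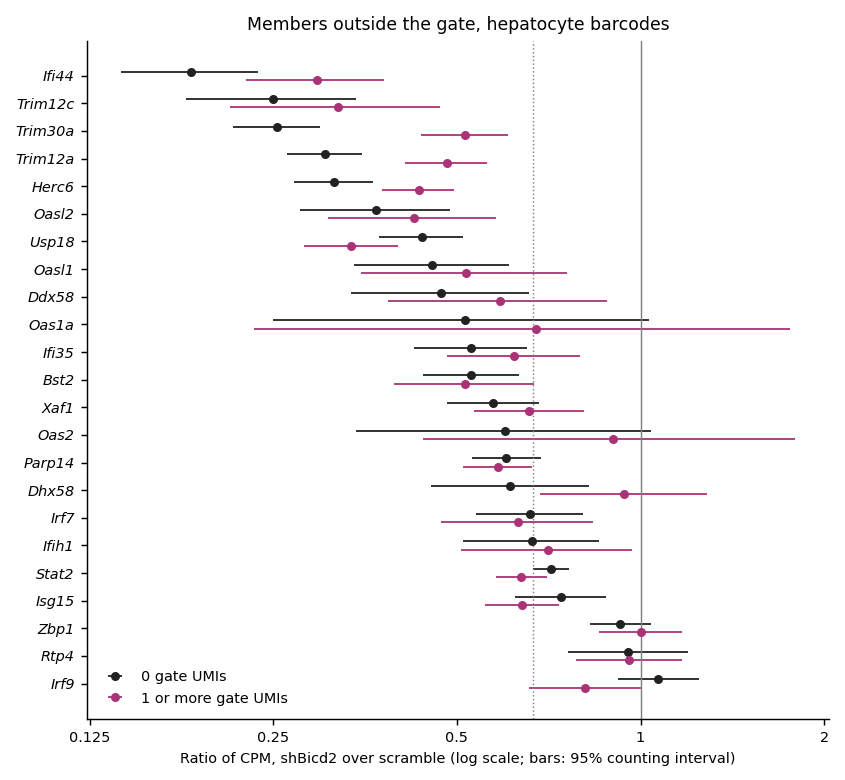
Ratio of CPM (shBicd2 over scramble, log axis) of the 23 members outside the gate with at least 20 UMIs in gate-zero hepatocyte barcodes, for barcodes with 0 gate UMIs (black) and with 1 or more (purple); bars are 95% counting intervals, the solid line is 1 and the dotted line is 1.5-fold lower. Ifi44 lies at 0.183 and 0.294 and Irf9 at 1.07 and 0.812.

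The members differed in how closely they followed the gate within a library. Isg15 was 2.90 times (2.52 to 3.34) as high in gate-positive as in gate-zero hepatocyte barcodes of the library labelled scramble, and 2.50 times (2.11 to 2.96) in the other. Rtp4 was 2.10 and 2.11 times as high, Parp14 1.86 and 1.80 times, and Herc6 1.86 and 2.56 times. Stat2 (0.953 and 0.854), Irf7 (0.910 and 0.871), Bst2 (0.907 and 0.886) and Zbp1 (0.867 and 0.936) had no higher level in gate-positive barcodes. Rtp4 and Isg15 thus tracked the gate in both libraries, yet their ratios between the libraries within gate-zero barcodes, 0.954 and 0.740, were among the nearest to 1. Trim30a was 1.13 times (1.01 to 1.27) as high in gate-positive barcodes of the library labelled scramble and 2.31 times (1.88 to 2.82) in that labelled shBicd2. Ifit3b, a copy of the gate gene Ifit3, was 8.04 and 19.5 times as high, from 10 and 4 UMIs in gate-zero barcodes.

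Thinned hepatocyte barcodes were then divided by their number of gate UMIs. With 0 gate UMIs the 27 other members summed to 3799 CPM (3693 to 3907) and 2131 CPM (2058 to 2206). They reached 4350 and 2384 CPM with 1 gate UMI, 4583 and 3032 CPM with 2, and 5921 and 3974 CPM with 3 to 5. In each of these categories the level was lower in the library labelled shBicd2, with ratios of 0.561, 0.548, 0.662 and 0.671. With 6 or more gate UMIs the sums were 8279 CPM (7441 to 9185) and 8700 CPM (6968 to 10731), from 43 and 10 barcodes. The 2 intervals overlap, but the top category held 2.39% and 0.546% of thinned barcodes. Before thinning its ratio was 0.768 (131 and 54 barcodes), and 0.729 without the shBicd2 barcode richest in member UMIs.

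**Figure D3:**
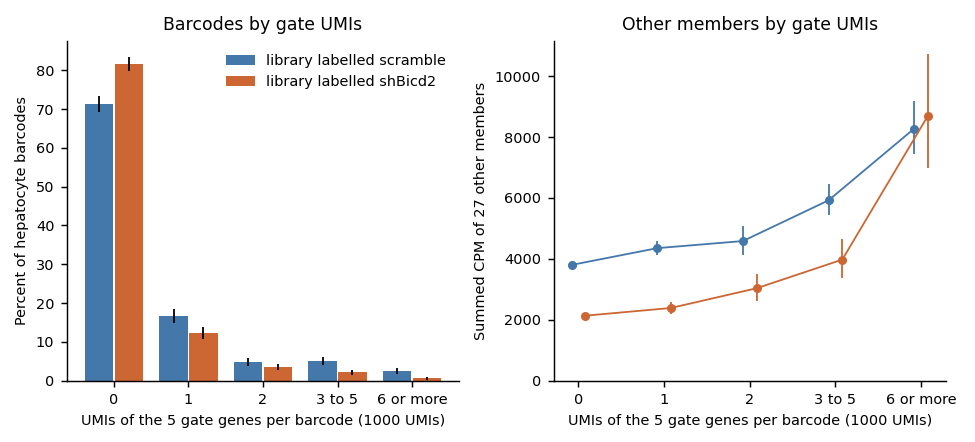
Hepatocyte barcodes thinned to 1000 UMIs, by UMIs of the 5 gate genes. Left, percent of barcodes in each library with exact 95% binomial intervals; right, summed CPM of the 27 other members with 95% Poisson intervals, which goes from 3799 to 8279 in scramble (blue) and from 2131 to 8700 in shBicd2 (orange).

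Ptprc-positive barcodes, a mixture that carried both immune and hepatocyte markers, held fewer UMIs (medians 1188 and 1080). Of the 152 and 114 barcodes, 58 and 37 held 2 or more Ptprc UMIs, and 92 and 79 held another listed immune marker. A hepatocyte marker was found in 89.5% and 100% of the class, so it is not a pure immune class. Gate-positive were 37.5% (29.8 to 45.7) and 32.5% (24.0 to 41.9) of Ptprc-positive barcodes. The 32 members summed to 1459 and 716 UMIs, a ratio of 0.670 (0.612 to 0.733). Of 26 members above the floor, 22 were lower in the library labelled shBicd2 and 13 were 1.5-fold lower or more, against 21.4% of the 3959 genes above it. The median log2 ratio was -0.55, against -0.03 for all genes. The mixture differed between the libraries: neutrophil markers, 7 and 11 of 11 detected, were found in 13.2% and 37.7% of these barcodes and made up 0.0161% and 0.256% of their UMIs. Mmp8, Mmp9, Ly6g and Cxcr2 were at 0 in the library labelled scramble. Erythroid markers made up 0.0204% and 0.769% of UMIs, and the median mitochondrial share was 0.267% and 1.14%. Leaving out barcodes with a neutrophil or erythroid marker UMI, which kept 105 and 54, gave a summed ratio of 0.634 (0.554 to 0.724).

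Ddx58 had the lowest ratio in Ptprc-positive barcodes, 0.273 (0.0679 to 0.815) from 20 and 4 UMIs, followed by Ifi35 at 0.290 (33 and 7 UMIs) and Usp18 at 0.326 (67 and 16 UMIs). Rsad2 had 408 and 225 CPM, a ratio of 0.551, and Herc6 had 415 and 235 CPM, a ratio of 0.567. Stat2 had 803 and 535 CPM, a ratio of 0.666, close to its value in hepatocyte barcodes. Oas2 alone was 1.5-fold higher or more, against 20.1% of genes. Above 1 were Oas2 at 1.76 (0.825 to 3.81), Rtp4 at 1.24 (0.643 to 2.38), Irf7 at 1.19 (0.693 to 2.05) and Isg15 at 1.09 (0.725 to 1.62), each with an interval that holds 1. Under the floor, Ifi27l2a (2 and 6 UMIs), Dhx58 (7 and 7 UMIs) and Oas3 (9 and 7 UMIs) also had a ratio over 1.

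**Figure D4:**
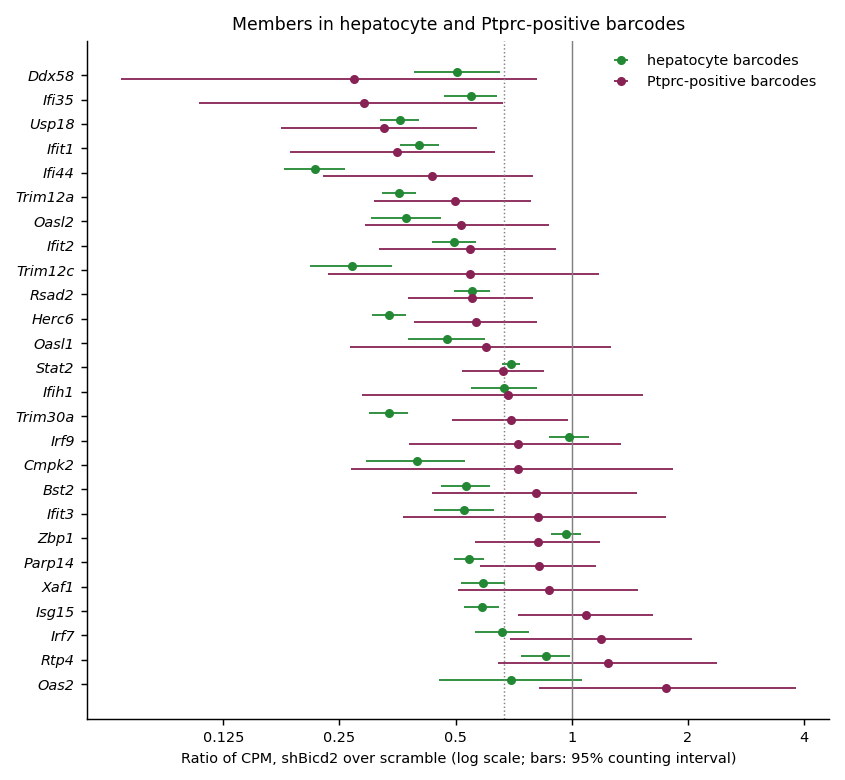
Ratio of CPM (shBicd2 over scramble, log axis) of the 26 members with at least 20 UMIs in Ptprc-positive barcodes, there (wine) and in hepatocyte barcodes (green), with 95% counting intervals; the solid line is 1 and the dotted line is 1.5-fold lower. Irf7, Rtp4, Isg15 and Oas2 lie above 1 in Ptprc-positive barcodes only, at 1.19, 1.24, 1.09 and 1.76.

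In the 95 and 77 gate-zero Ptprc-positive barcodes the 27 other members had 465 and 298 UMIs, a ratio of 0.751 (0.647 to 0.870). Of the 15 above the floor, 10 were lower in the library labelled shBicd2 and 6 were 1.5-fold lower or more, against 22.8% of 2307 genes; 2 were 1.5-fold higher or more, against 21.1%. The median log2 ratio was -0.30, against -0.05 for all genes. Trim12a at 0.256 (32 and 7 UMIs), Herc6 at 0.320 (33 and 9 UMIs) and Ifi44 at 0.345 (17 and 5 UMIs) were lowest, and Trim30a was at 0.414 (0.227 to 0.720). Isg15 was at 24.0 and 160 CPM, from 3 and 17 UMIs, a ratio of 6.64 (1.92 to 35.4). Without barcodes that held neutrophil or erythroid marker UMIs it had 2 and 6 UMIs, a ratio of 5.23 (0.935 to 53.0). Oas2 had 6 and 14 UMIs, a ratio of 2.73 (0.987 to 8.68). Bst2 (112 and 141 CPM), Zbp1 (208 and 263 CPM) and Irf9 (112 and 113 CPM) had ratios over 1 with intervals that hold 1, as did Rtp4 (1.05), Dhx58 (1.41), Oas3 (2.34) and Ifi27l2a (4.69) under the floor. The lowest 4 here, Trim12a, Herc6, Ifi44 and Trim30a, were also among the 5 lowest in gate-zero hepatocyte barcodes.

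Some members were richer in Ptprc-positive than in hepatocyte barcodes. Oas3 was 18.1 times (6.20 to 53.9) as high in the library labelled scramble and 9.68 times (3.37 to 24.9) in the other. Oas2 was 3.95 and 9.96 times as high, Oasl2 2.50 and 3.46 times, and Trim30a 1.43 and 2.95 times. Ifi27l2a was 14.8 times (4.32 to 46.4) as high in the library labelled shBicd2 and had 2 against 0 UMIs in the other. Stat2 had a similar level in both classes, 1.02 and 0.980 times, and since the Ptprc-positive barcodes also held hepatocyte RNA, such a level cannot be assigned to immune cells.

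Clusters made without the members and the other listed interferon and pathway genes give a view that does not depend on the marker rule. Interferon-responsive genes outside these lists were not left out. Most hepatocyte clusters came mainly from 1 library, and 5 clusters held at least 50 barcodes of each. Cluster 3 (332 and 274 barcodes), led by mitochondrial transcripts, had 4359 and 2260 CPM of members, a ratio of 0.518 (0.476 to 0.564). Cluster 2 (711 and 88 barcodes) had 6105 and 4422 CPM, a ratio of 0.724. It still had Ifit1, Ifit2 and Rsad2 among its 10 leading genes. Cluster 8 (74 and 82 barcodes) had 11 of 14 monocyte and macrophage markers raised. Its members had 8693 CPM (8059 to 9363) and 5563 CPM (5052 to 6112), a ratio of 0.640. Cluster 9, a mixture with neutrophil and endothelial markers (61 and 69 barcodes), had a ratio of 0.547, and cluster 7, with B cell and erythroid markers (106 and 73), one of 0.756. Of the members above the floor, 22 of 28 in cluster 2 and 25 of 27 in cluster 3 were lower in the library labelled shBicd2. In clusters 7, 8 and 9 these counts were 10 of 16, 16 of 17 and 14 of 17. The share of all genes that was lower is not given for single clusters.

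**Figure D5:**
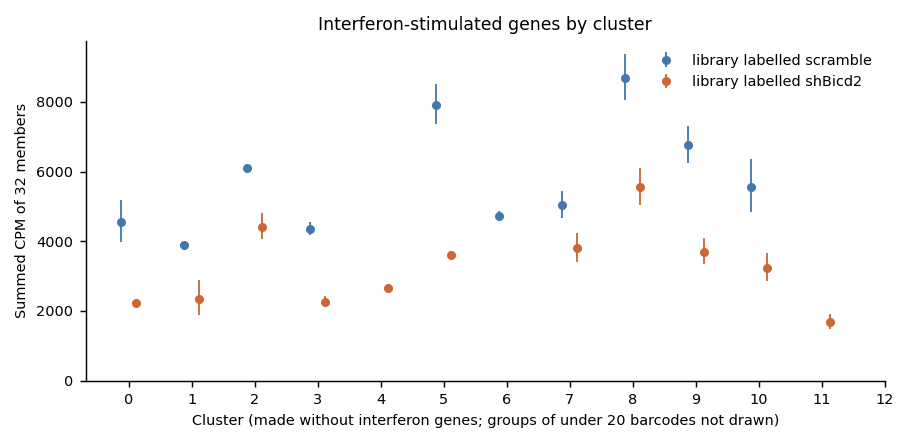
Summed CPM of the 32 members by cluster, where at least 20 barcodes of a library were in it, for the library labelled scramble (blue) and shBicd2 (orange), with 95% Poisson intervals. In every cluster drawn for both libraries the orange point is lower, from 7920 and 3610 CPM in cluster 5 to 5041 and 3809 CPM in cluster 7. Among clusters with fewer barcodes, the ratio was 0.350 in cluster 11 (8 and 69 barcodes) and 0.925 (0.661 to 1.27) in cluster 12 (17 and 6), which is not drawn.

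The rest of the pathway was read in hepatocyte barcodes. Among the ligands, 14 interferon alpha-type genes had 0 UMIs in either library, as had the interferon lambda genes, and interferon gamma had 6 and 12 UMIs over all kept barcodes; a count of 0 allows up to 0.613 and 0.554 CPM. Ifnb1, which encodes interferon beta, had 0 and 12 UMIs over all kept barcodes, and 0 and 11 in hepatocyte barcodes. The receptor chains Ifnar1 (34.3 and 29.7 CPM) and Ifnar2 (40.4 and 38.7 CPM) differed within counting error, and Ifngr1, a chain of the interferon gamma receptor, had 15.3 and 39.9 CPM. Of 10 kinases and factors, 3 were 1.5-fold higher or more, against 24.7% of all genes, and 0 were 1.5-fold lower, against 10.8%. Irf1, a factor strongly induced by interferon gamma, had 847 and 1294 CPM, and Stat3, the factor of interleukin-6 signalling, had 517 and 485 CPM. Of 6 genes that lead to interferon induction above the floor, 0 were 1.5-fold apart in either direction; the kinases Ikbke and Tbk1 had 618 and 867 CPM and 179 and 193 CPM. The feedback inhibitors Socs1 (734 and 651 CPM) and Socs3 (332 and 283 CPM) were slightly lower in the library labelled shBicd2.

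Of 42 other interferon-stimulated genes above the floor, 33 were lower in the library labelled shBicd2. In this list 14 were 1.5-fold lower or more, against 10.8% of all genes, and 3 were 1.5-fold higher or more, against 24.7%; the median log2 ratio was -0.39, against 0.15. The 4 with the most UMIs were Rnf213 (850 and 355 CPM), Helz2 (575 and 472 CPM), Samhd1 (639 and 256 CPM) and Ifitm3 (214 and 303 CPM). Samhd1 degrades deoxynucleotides and Rnf213 is a large ubiquitin ligase, while Ifitm3, which blocks viral entry, was higher. Of 25 genes listed as interferon gamma targets, 3 were 1.5-fold lower or more, near the 10.8% of all genes, and 2 were 1.5-fold higher or more, a smaller share than the 24.7% of all genes. Their median log2 ratio was -0.04, against 0.15. Iigp1, an immunity-related GTPase, had 4821 and 4212 CPM, and Cxcl10 and Cxcl9, chemokines for T cells, had 2142 and 1710 CPM and 1117 and 1086 CPM. Gbp7, a guanylate-binding protein, had 880 and 436 CPM. The difference between these lists and the members was not tested.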

How the data were processed

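Counts of UMIs per gene and barcode were used as deposited by the authors, in 2 matrices. The software version in the matrix header is 6.1.2 of Cell Ranger, per the file headers; the submitters' processing notes name Cell Ranger 6.0.1, Seurat 4.0.3 and build mm10. Barcodes needed 200 genes and at most 25% mitochondrial UMIs; Scrublet scores (scanpy 1.11.5) removed 62 and 73 likely doublets, at 0.8% per 1000 barcodes. Summed counts gave CPM with exact Poisson intervals, shares with Clopper-Pearson intervals and ratios with conditional binomial intervals. PCR and capture error are not covered. A floor of 20 UMIs over both libraries and a 1.5-fold bound described lists; 0.5 was added before log2. With 1 library per group no test was run. The interval script was tested on simulated data. TMM factors came from edgeR 4.0.16. Coordinates are from GENCODE on GRCm38, matched by gene ID.

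The members and lists were chosen with earlier results of these data known. Named were, per role group, the up to 3 members with the most UMIs, every transcription factor, every member with a ratio above 1, and the 3 lowest ratios per class; other lists are given by counts and at most 4 genes with the most UMIs, and further genes named (Gbp7, the TRIM neighbours, Ifnb1) were chosen after their values were seen. Marker lists for 10 other cell types were summed per class. Alternatives covered scaling, thinning, the UMI floor, mitochondrial share, EGFP, the gate and the marker rules.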

Additional observations from a re-analysis of the deposited data

How the results depend on the processing

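With 1 library in each group, neither leaving out a replicate nor a test was possible. No paired analysis was possible because each group has 1 library. Every summed ratio stayed below 1 under the alternatives run. The counts of members 1.5-fold lower moved in the Ptprc-positive classes, as given below. TMM scaling lowered log2 ratios by 0.15 in hepatocyte barcodes (0.14 over all kept barcodes), where the median of all genes was 0.15; summed ratios became 0.494 over all kept barcodes (0.545 before), 0.484 in hepatocyte and 0.512 in gate-zero hepatocyte barcodes. Without EGFP-bearing barcodes the ratio was 0.518 over all kept and 0.494 in hepatocyte barcodes. Without Stat2 in the sum it was 0.518, 0.505 in hepatocyte and 0.517 in gate-zero hepatocyte barcodes, and with a gate of 10 genes it was 0.605 in the last. A gate of at least 2 UMIs gave a ratio of hepatocyte shares of 0.523 in place of 0.633.

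Ptprc-positive values moved most. At most 1% mitochondrial UMIs gave 0.578, and 0.589 in gate-zero barcodes; thinning gave 0.483 and 0.576, with 7 of 8 members above the floor 1.5-fold lower in place of 13 of 26. In gate-zero Ptprc-positive barcodes 6 of 15 members above the floor were 1.5-fold lower. This was 2 of 3 with thinning, 2 of 6 with a gate of 10 genes, 3 of 12 without EGFP-bearing barcodes, 3 of 7 with a second immune marker required, 3 of 6 without neutrophil and erythroid markers, 1 of 4 at a floor of 50 UMIs and 12 of 26 at a floor of 1. The share of all genes that was 1.5-fold lower is not given for these alternatives, nor for the thinned Ptprc-positive class. In the main run it was 22.8% in gate-zero Ptprc-positive and 21.4% in Ptprc-positive barcodes. The counts of 3 of 12 and 1 of 4 lie near the first of these shares. Depth limits the Ptprc-positive class: 58 and 38 barcodes reached 1000 UMIs. The marker-free hepatocyte class, the omission of the richest barcode, the sum without Stat2 and the neutrophil-free Ptprc class were chosen after seeing the data.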

Other observations

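All 12 Ifnb1 UMIs lay in 4 barcodes of the library labelled shBicd2, with 1, 1, 9 and 1 UMIs, and each of these barcodes also had at least 1 EGFP UMI, as had 808 of the 2941 kept barcodes of that library. The barcode with 9 Ifnb1 UMIs was the hepatocyte barcode with the most member UMIs in either library: 241 of its 8659 UMIs, of which 160 were gate UMIs, while the highest barcode of the library labelled scramble had 117. It held 65 Rsad2, 46 Ifit2 and 32 Ifit1 UMIs. Without it the ratio of the 5 gate genes in hepatocyte barcodes was 0.432 (0.405 to 0.460) in place of 0.481, and that of all members 0.525. Another of the 4 barcodes had 39 member UMIs, 35 of them gate UMIs, among 1068.

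EGFP-bearing hepatocyte barcodes had a higher member level than EGFP-free ones in each library, 6376 against 4781 CPM in that labelled scramble and 3143 against 2364 CPM in that labelled shBicd2. Their share was 6.24% and 27.8%, and within either class the ratio between libraries was lower than in the pool, 0.493 with EGFP (140 and 631 barcodes) and 0.494 without (2105 and 1635), against 0.536. Among gate-zero barcodes the level with EGFP was close to that without it, 3741 against 3666 CPM and 2073 against 2048 CPM.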
